A study of Homo sapiens with 12 samples.

Results

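The 10 genes described here encode heat shock chaperones of the cytosol and the mitochondria. They are HSPH1, HSPA4, HSPA8, DNAJA1, DNAJB1, HSP90AA1, HSP90AB1, HSPB1, HSPE1 and HSPD1. They were taken by name from the annotation of the array, with older names such as HSPCA for HSP90AA1 and HSPCB for HSP90AB1, and all 10 were found among 14488 gene symbols. HSP90AA1, HSP90AB1 and DNAJA1 were read by 2 probes each and the other 7 genes by 1 probe each. The RNA came from LNCaP, a human prostate cancer cell line, after 5 mM metformin, 5 mM AICAR or no drug. Metformin is a biguanide that inhibits complex I of the respiratory chain, and AICAR is a nucleoside whose phosphorylated form activates the kinase AMPK. The sample labels give 24 h of treatment for both drugs, while a figure legend of the study gives a shorter time for metformin. RNA of 2 conditions was hybridized together on two-colour arrays, 12 in all, so that each of the 3 pairs of conditions was compared in 2 independent cultures, with the dyes exchanged on the other array of each culture.

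Heat shock chaperones bind unfolded protein chains and help them fold, or hold them until they can be refolded or degraded. Proteins of the HSP70 family (here HSPA8) work in cycles of ATP hydrolysis. J-domain proteins such as DNAJA1 and DNAJB1 bring them substrates, and HSP110 proteins such as HSPH1 and HSPA4 exchange their nucleotide. HSP90 proteins act later on folding kinases and steroid receptors, among them the androgen receptor on which prostate cancer cells depend. HSPD1 and HSPE1 form the folding chamber of the mitochondrial matrix, and HSPB1 is a small heat shock protein that holds unfolded proteins without using ATP. Many of these genes are induced together by the transcription factor HSF1, which binds inverted repeats of the bases GAA called heat shock elements.

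The values are log2 ratios of the condition named first to the condition named second, so a ratio below 0 means less mRNA in the first. They hold no absolute level, so the levels of different genes cannot be ranked and the identity of the cell line could not be checked by its markers. Neither the base of the logarithm nor the direction of the ratio is stated in the sources used here. They were taken to be the log2 ratio of Cy5 to Cy3, the usual form in the limma package, and with this reading DDIT4 and SESN2, stress-response genes known to rise when cells lack energy, had ratios of 3.28 and 2.48 for metformin against control. The study itself reports that these genes rose with metformin in its microarrays of LNCaP cells. The opposite direction would make them fall, so the metformin ratios and that report together speak for the direction used here. With AICAR, SESN2 was also higher (1.33, adjusted p = 0.0432 from limma) but DDIT4 was lower (−1.34, adjusted p = 0.0171), so the AICAR values do not bear on it. The base of the logarithm remains an assumption. Each direction below rests on this reading. A transcript passed the test with an adjusted p below 0.05 (limma, Benjamini-Hochberg adjustment over 24541 transcripts) and a log2 ratio beyond 0.7 in either direction. SE is the moderated standard error over the 2 cultures. Dye-swap partners correlated across features at −0.723 to −0.419 before the signs were turned, array medians lay between −0.0417 and 0.051, and the labels give an RNA integrity number of 9 for all 24 labelled extracts.

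The sequence around annotated start sites of the genes is shown first, because heat shock elements are what many of them have in common. Windows of 300 bases, 250 before and 50 after each annotated start site, were taken from RefSeq (GRCh38.p14), which holds 16 windows for the 10 genes. An element of 2 units was searched as GAANNTTC or TTCNNGAA, each of which reads the same on both strands, and one of 3 units as both forms sharing their middle unit, so that each element of 3 units also counts as one of 2 units. At least 2 units were found for 7 of the 10 genes and 3 units for 5 of them. Of all 35116 windows, 13.5% held 2 units and 0.49% held 3 units, and of all 27305 genes with a window, 16.2% and 0.608% did so. The stretches below are 30 bases long, 5′ to 3′ on the strand of the gene, and the capitals mark the element.
HSPA8: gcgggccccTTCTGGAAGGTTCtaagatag
HSP90AA1: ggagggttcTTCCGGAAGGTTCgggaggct
HSP90AB1: ctgagattgTTCTGGAAGCTTCtggattct
HSPD1: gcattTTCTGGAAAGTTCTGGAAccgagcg
HSPB1: ccttaacgagaGAAGGTTCcagatgagggc
DNAJA1: aaagggctccaGAAGATTCcacgagcgccg
DNAJB1: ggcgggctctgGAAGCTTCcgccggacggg
These lie at chr11:123062171-123062200 for HSPA8, chr14:102087112-102087141 for HSP90AA1, chr6:44247822-44247851 for HSP90AB1, chr2:197500061-197500090 for HSPD1, chr7:76302480-76302509 for HSPB1, chr9:33025064-33025093 for DNAJA1 and chr19:14518426-14518455 for DNAJB1. The elements of HSPA8 and HSP90AA1 begin 55 and 88 bases before a start site, that of DNAJB1 47 bases before one and that of HSPB1 182 bases before its only one. Those of HSP90AB1 and HSPD1 begin 112 and 245 bases before one. For HSP90AA1, HSP90AB1, HSPD1 and DNAJB1 this is a start site inside the gene, and the stretch shown lies within the gene bounds. The window furthest upstream held no match for any of these genes. DNAJA1 also has 3 units just after its start site. No match was found in the windows of HSPH1, HSPA4 and HSPE1, which says only that these letters are not in those windows. A match is a description of the sequence and was not tested against the ratios.

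Metformin lowered the mRNA of 4 of the 10 chaperones relative to control cells, and none rose. HSPH1 fell the most, followed by HSPB1, HSPE1 and HSP90AB1. In all, 9 of the 10 ratios were below 0 on all 4 arrays of the comparison, HSPD1 being the exception, and the same 9 had an unadjusted p below 0.05 (limma). Of all transcripts, 1.23% passed as lower, 1.5% passed as higher, 12.5% were below 0 on all 4 arrays and 17.5% had an unadjusted p below 0.05 in either direction. The median log2 ratio of the 10 genes was −0.77, while of all transcripts 12258 lay above 0 and 12283 below.

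HSPH1 is an HSP110 protein, a nucleotide exchange factor of HSP70 that also keeps unfolded proteins soluble. Its log2 ratio of metformin to control was −2.13 and −1.97 on the arrays of culture 1 and −1.89 and −1.97 on those of culture 2. The arrays lay close together and none came near 0. The fitted ratio was −1.96 (adjusted p = 0.0132 from limma, SE 0.15 over n = 2 cultures), a level 3.89-fold lower with metformin, and only 3 of 24541 transcripts had a lower ratio. With AICAR the same gene had ratios to control of 0.41 and 0.43 in culture 1 and of 0.03 and −0.07 in culture 2. These straddle 0, and the fitted ratio of 0.17 did not pass (95% interval −0.22 to 0.56, adjusted p = 0.577 from limma). The arrays that hold metformin and AICAR RNA together gave −2.34, −2.41, −1.66 and −1.99, all far below 0. Here the fitted ratio was −2.13 (SE 0.15, adjusted p = 0.005 from limma), a level 4.38-fold lower with metformin than with AICAR. Metformin-treated cells thus had the lowest HSPH1 mRNA of the 3 conditions, and no order of AICAR-treated and control cells passed the test.

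HSPA4, the other HSP110 protein, had a smaller ratio with metformin that did not pass. The arrays gave −0.94 and −0.49 in culture 1 and −0.54 and −0.72 in culture 2, with a fitted ratio of −0.65 (95% interval −0.98 to −0.32, adjusted p = 0.073 from limma). With AICAR the ratios to control were −0.50, −0.23, −0.78 and −0.52, and the fitted ratio of −0.53 did not pass either (adjusted p = 0.103). The 4 arrays of either drug were all below 0. Between metformin and AICAR the fitted ratio was −0.12 (95% interval −0.45 to 0.21), with −0.35 in culture 1 and 0.10 in culture 2, so the order of the drugs was not the same in both cultures.

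HSPB1, the small heat shock protein HSP27, was the next lowest of the genes that passed. Metformin gave −0.81 and −1.68 in culture 1 and −1.28 and −1.46 in culture 2. The arrays with metformin RNA in Cy3 gave the lower value in each culture, and the mean of a dye-swap pair cancels such a difference. The fitted ratio was −1.30 (limma, adjusted p = 0.0126, SE 0.10, n = 2 cultures), a level 2.46-fold lower, and the 2 cultures gave −1.28 and −1.31. AICAR left its arrays on both sides of 0, at 0.37, −0.51, 0.45 and 0.06, with a fitted ratio of 0.09 (95% interval −0.16 to 0.33, adjusted p = 0.663). Set against AICAR, metformin-treated cells were lower on all 4 arrays, at −0.94, −1.65, −1.09 and −1.81. That ratio passed at −1.38 (SE 0.10, adjusted p = 0.00497 from limma), or 2.61-fold lower. As for HSPH1, metformin-treated cells had the lowest level of the 3 conditions. The AICAR ratio was −0.15 without 3 arrays of culture 1 that have slide numbers far from those of the remaining 9. Of the culture 1 arrays of AICAR and control, this leaves only the one with AICAR in Cy3 (−0.51). The dyes are then no longer balanced, so the change of sign cannot be told apart from a dye difference.

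**Figure D1:**
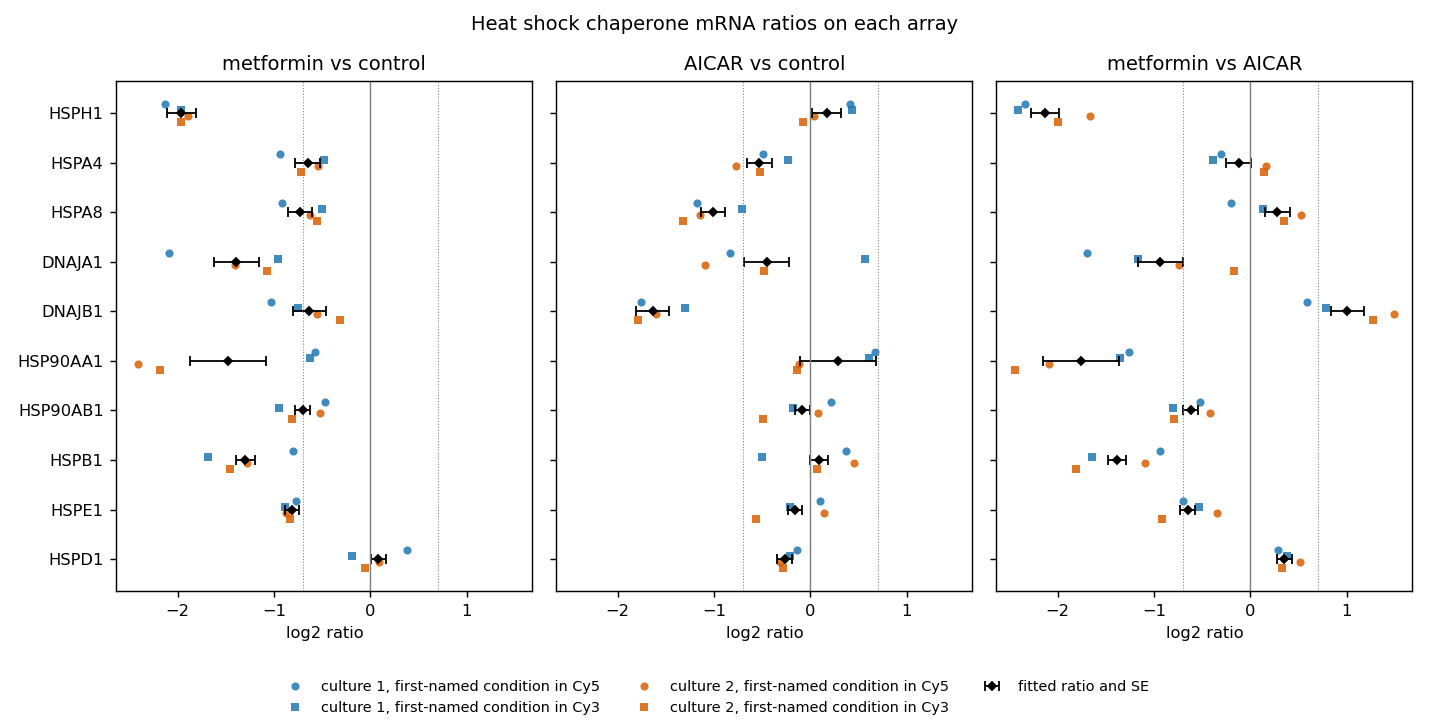
Log2 ratios of the 10 chaperone genes (rows) in the 3 comparisons (panels). Points are single arrays, coloured by culture and shaped by dye, black diamonds with bars are the fitted ratios with their SE, and dotted lines mark the ratio threshold of 0.7 in either direction. In the panel of metformin against control, the arrays of every gene except HSPD1 lie below 0, with HSPH1 between −2.13 and −1.89, while HSP90AA1 splits by culture.

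HSPE1 and HSPD1 encode the lid and the barrel of the mitochondrial folding chamber, and of the pair only HSPE1 passed with metformin. HSPE1 gave −0.77 and −0.89 in culture 1 and −0.88 and −0.83 in culture 2, the narrowest range of arrays among the 10 genes in this comparison. Its fitted ratio of −0.81 passed (limma, adjusted p = 0.0172, SE 0.08, n = 2 cultures), a level 1.76-fold lower. HSPD1 gave 0.38, −0.19, 0.09 and −0.06, on both sides of 0. Its fitted ratio was 0.08 and did not pass (95% interval −0.12 to 0.28, adjusted p = 0.707 from limma). The array ranges of the 2 genes do not overlap, and neither do the intervals of their ratios, since that of HSPE1 runs from −1.01 to −0.62. The difference between the 2 genes was not tested as such.

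The 2 genes are neighbours. HSPD1 (chr2:197486584-197500274, minus strand) and HSPE1 (chr2:197500379-197503449, plus strand) are transcribed away from each other, and the outermost starts are 105 bases apart. The 104 bases between the genes, chr2:197500275-197500378 on the plus strand (GRCh38.p14, RefSeq), are shown because the genes lie directly on either side of them.
HSPD1 to HSPE1: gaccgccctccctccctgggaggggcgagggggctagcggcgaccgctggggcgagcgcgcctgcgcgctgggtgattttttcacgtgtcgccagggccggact
RefSeq lists 22 pseudogenes named after HSPD1 and 28 named after HSPE1, and a transcript that joins HSPE1 to the next gene, MOB4. What the probes bind of these cannot be told from the files, so both ratios are uncertain in this respect. With AICAR neither gene passed, at −0.16 for HSPE1 (adjusted p = 0.309 from limma) and −0.27 for HSPD1 (adjusted p = 0.15). HSPD1 was however below 0 on all 4 AICAR arrays, at −0.14, −0.22, −0.31 and −0.28. Between metformin and AICAR, HSPE1 had a ratio of −0.65 (SE 0.08, adjusted p = 0.0129), short of the ratio threshold, and HSPD1 one of 0.35 (SE 0.08, adjusted p = 0.0571), with its 4 arrays between 0.28 and 0.52. On the arrays that hold both drugs, the 2 genes therefore lay on opposite sides of 0.

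The 2 cytosolic HSP90 genes were both below 0 with metformin. HSP90AB1, the constitutive form, gave −0.47 and −0.95 in culture 1 and −0.53 and −0.81 in culture 2. The cultures averaged −0.69 and −0.72, and the fitted ratio of −0.70 passed by limma (adjusted p = 0.0246, SE 0.08, n = 2 cultures), but it lies only just beyond the threshold of 0.7. Its 2 probes read −0.62 and −0.78, and tested singly only the second passed (adjusted p = 0.0517 and 0.0184). AICAR arrays of this gene lay between −0.49 and 0.21, with a fitted value of −0.08 (95% interval −0.29 to 0.12, adjusted p = 0.611). Metformin against AICAR gave −0.62 (SE 0.08, adjusted p = 0.016), below 0 on all 4 arrays but short of the ratio threshold. Tested singly, the second probe passed here too (−0.77, adjusted p = 0.00952) and the first did not (−0.47, adjusted p = 0.0529).

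HSP90AA1, the stress-inducible form, had a fitted ratio further from 0 than HSP90AB1 with metformin but did not pass. In culture 1 the arrays gave −0.57 and −0.62, and in culture 2 they gave −2.41 and −2.19. The dye-swap partners lay close together, and the spread lies between the cultures. The fitted ratio of −1.48 therefore has a wide interval (SE 0.39, 95% interval −2.49 to −0.46, adjusted p = 0.143 from limma). Both probes of the gene showed the split. With AICAR the same cultures gave 0.67 and 0.60, and −0.12 and −0.14, so the sign differed between them (fitted 0.28, adjusted p = 0.734). Here the probes also differed in sign, at 0.75 and −0.19. Metformin against AICAR was below 0 on all arrays, at −1.26 and −1.35 in culture 1 and at −2.09 and −2.44 in culture 2, and the fitted ratio of −1.76 missed the test (SE 0.39, adjusted p = 0.0578). From the arrays of this pair alone it passed, at −1.79 (limma, adjusted p = 0.0465). Only 11 transcripts had a lower ratio in that comparison.

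**Figure D2:**
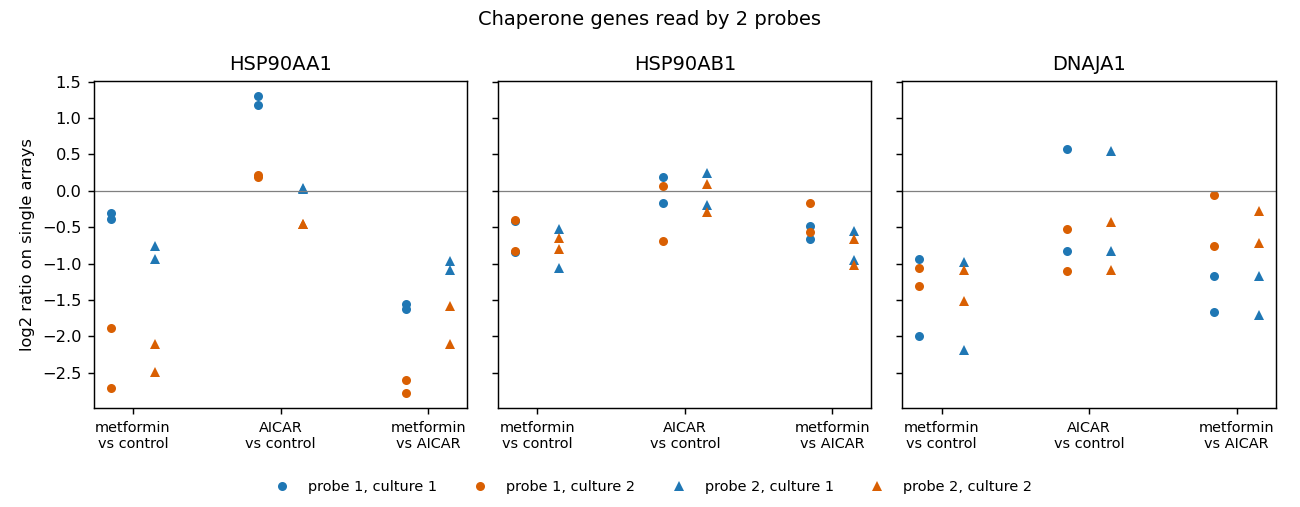
Log2 ratios on single arrays for the 3 chaperone genes with 2 probes. Circles are the first probe and triangles the second, and the colours are the 2 cultures. HSP90AA1 separates by culture on both probes for metformin against control, whereas the 2 probes of DNAJA1 follow each other from array to array.

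HSPA8 and DNAJB1 were lowered by AICAR. HSPA8 encodes HSC70, the constitutive HSP70 of the cytosol, and its ratios of AICAR to control were −1.18 and −0.71 in culture 1 and −1.15 and −1.33 in culture 2. All 4 lie below 0, and the fitted ratio of −1.01 passed (limma, adjusted p = 0.0239, SE 0.13, n = 2 cultures), a level 2.02-fold lower with AICAR. The gene did not pass with metformin, where the arrays gave −0.92, −0.51, −0.63 and −0.55 and the fit −0.73 (95% interval −1.06 to −0.40, adjusted p = 0.0572). The 2 drugs were not shown to differ, since metformin against AICAR gave 0.28 (95% interval −0.05 to 0.61, adjusted p = 0.248). The call with AICAR was lost without the same 3 arrays (−0.94, adjusted p = 0.0694). RefSeq lists 20 pseudogenes named after HSPA8, 6 after DNAJA1 and 2 each after HSPB1 and DNAJB1. The count covers only names made of the gene symbol, P and a number. It can therefore miss pseudogenes named otherwise, also for genes without a count here such as HSP90AA1 and HSP90AB1. What the probes bind of any pseudogene could not be checked for these genes either.

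DNAJB1, the J-domain protein HSP40, had the lowest AICAR ratio of the 10 genes. The arrays gave −1.76 and −1.30 in culture 1 and −1.60 and −1.79 in culture 2. The fitted ratio was −1.64 (limma, adjusted p = 0.0166, SE 0.17, n = 2 cultures), a level 3.11-fold lower than in control cells. With metformin the ratios were −1.03, −0.75, −0.55 and −0.31, all below 0 but smaller, and the fit of −0.63 did not pass (95% interval −1.08 to −0.19, adjusted p = 0.148). DNAJB1 was also the only one of the 10 that passed as higher in metformin-treated than in AICAR-treated cells. These arrays gave 0.58, 0.78, 1.48 and 1.27, with a fitted ratio of 1.00 (SE 0.17, adjusted p = 0.0305 from limma). From the arrays of this pair alone the ratio was 1.03 and no longer passed (adjusted p = 0.0736). AICAR-treated cells thus had the lowest DNAJB1 mRNA, whereas HSPH1 and HSPB1 were lowest in metformin-treated cells.

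DNAJA1, the other J-domain protein, was below 0 on every metformin array but did not pass. The ratios were −2.09 and −0.96 in culture 1 and −1.41 and −1.08 in culture 2. The array with metformin in Cy5 gave the lower value in each culture, and the 2 probes showed the same difference between dyes. The fitted ratio of −1.39 (SE 0.23, 95% interval −2.00 to −0.79) had an adjusted p of 0.0529 from limma, just short of the test. With AICAR the arrays ran between −1.10 and 0.56, a spread that covers 0, and the fit gave −0.46 (adjusted p = 0.348). Metformin against AICAR gave −1.69, −1.17, −0.74 and −0.17, a fitted −0.94 (SE 0.23, adjusted p = 0.0752).

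Across the 10 genes, AICAR lowered 2 and metformin 4, with HSPA8 called with AICAR and just short of the test with metformin. HSPA8 passed with both drugs where array deviations were made equal (limma, adjusted p = 0.041 with metformin and 0.0281 with AICAR). It also passed with both where the 12 arrays were separate data points (limma, adjusted p = 0.000138 and 6.22e-06). That fit counts dye-swap arrays of the same extracts as independent, so its p-values overstate the replication. AICAR raised none of the 10 (limma), and the 4 genes with an unadjusted p below 0.05, a level that 20.9% of all transcripts reached, had ratios below 0. Of all transcripts, 2.89% passed as lower and 0.456% as higher with AICAR, and 13.3% were below 0 on all 4 arrays, as were 4 of the 10 chaperones (HSPD1, HSPA8, HSPA4 and DNAJB1). The median of the 10 AICAR ratios was −0.21, beside 0.04 for all transcripts. Between metformin and AICAR, HSPH1 and HSPB1 were lower and DNAJB1 was higher with metformin, where 2.01% of all transcripts passed as lower and 4.59% as higher. The median of the 10 was −0.64, beside −0.03 for all transcripts. Of the 10, 6 were below 0 on all 4 arrays of this comparison and 2 were above 0 on all 4 (HSPD1 and DNAJB1), as were 22.3% and 16.8% of all transcripts. The 3 comparisons share RNA extracts, so their values are not independent of one another.

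The calls for metformin against control rest on all 3 kinds of array. The fit joins the direct ratio of metformin to control with the one that runs through AICAR, and these differed by at most 0.27 for any of the 10 genes in either culture. From the direct arrays alone the ratios hardly moved, at −1.99 for HSPH1, −1.31 for HSPB1, −0.84 for HSPE1 and −0.69 for HSP90AB1. However, none of the 4 passed there (adjusted p = 0.0779, 0.0779, 0.081 and 0.0902), nor did any other transcript in limma, although 16.1% of all transcripts and 9 of the 10 genes had an unadjusted p below 0.05. All 4 passed without the 3 arrays with slide numbers apart.

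The partners of these chaperones were followed in lists of genes taken from general knowledge, but chosen with earlier results of these data known. Of 21 measured cochaperones of HSP90, metformin lowered 3 and raised 1, and 18 ratios to control were below 0, with a median of −0.38. Of all transcripts 1.23% passed as lower and 1.5% as higher, and 12283 of 24541 were below 0. STIP1, which hands substrates from HSP70 to HSP90, was at −1.20 (limma, adjusted p = 0.0172, SE 0.11), its arrays lying between −1.73 and −0.79. AHSA1, which stimulates the ATPase of HSP90, had −0.84 (adjusted p = 0.0324), and RUVBL1, an ATPase of a complex that works with HSP90, had −0.86 (adjusted p = 0.0368). SGTB, a small tetratricopeptide repeat protein, was higher at 1.37 (SE 0.08, adjusted p = 0.00986). With AICAR only TTC4, another tetratricopeptide repeat protein, passed, at −1.89 (SE 0.09, adjusted p = 0.0069). Between metformin and AICAR, where 2.01% of all transcripts passed as lower and 4.59% as higher, TTC4 (1.66) and SGTB (1.39) were higher with metformin. The same shares apply to the lists that follow. STIP1 (−1.05), CHORDC1 (−1.44), an HSP90 partner induced by heat, and CDC37, which brings kinases to HSP90, were lower. CDC37 is named because it completes this count, after its value was seen. AHSA1, RUVBL1 (metformin against control) and CHORDC1 no longer passed without the 3 arrays with slide numbers apart (adjusted p = 0.0881, 0.064 and 0.0647), nor did RUVBL1 with equal array deviations (adjusted p = 0.0574).

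Among the other mitochondrial chaperones and proteases, metformin raised 2 and lowered 1 of 20 measured genes. HSPA9, the mitochondrial HSP70, rose to a ratio of 1.37 to control (SE 0.09, adjusted p = 0.0111 from limma), with arrays between 1.23 and 1.60. LONP1, a protease of the matrix, rose to 1.52 (SE 0.11, adjusted p = 0.0126). PHB1, a prohibitin of the inner membrane, was lower at −0.92 (adjusted p = 0.0473). Within the same compartment, then, HSPA9 and LONP1 were higher, HSPD1 did not pass and HSPE1 was lower. No gene of this list passed with AICAR in limma, where 9 of 20 had an unadjusted p below 0.05, beside 20.9% of all transcripts. HSPA9 (0.93), LONP1 (1.53) and CLPX (1.04), the unfoldase of another matrix protease, were higher with metformin than with AICAR, and PHB1 (−0.83) was lower. Without the 3 arrays, CLPX (adjusted p = 0.0757) and both PHB1 calls (adjusted p = 0.0973 against control and 0.0987 against AICAR) were lost, and PHB1 against control also with robust variances (adjusted p = 0.0531).

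TRiC is the cytosolic folding chamber, and prefoldin passes it substrates. Of their 14 measured subunits, CCT2 and CCT3 were lower with metformin than in control cells (both with a ratio of −1.01, adjusted p = 0.0433 and 0.0211 from limma). Of the 14 ratios 10 were below 0, with a median of −0.31. None passed with AICAR in limma (4 of 14 had an unadjusted p below 0.05, beside 20.9% of all transcripts), and between the drugs CCT2 (−0.88) and TCP1 (−0.74) were lower with metformin. HSPA13, an HSP70 of the endoplasmic reticulum, was the only one of 9 other HSP70 and HSP110 genes to pass with metformin, at 1.82 (SE 0.10, adjusted p = 0.00892). HSPA1B, a heat-inducible HSP70 named here after its value was seen, passed with neither drug. It had −0.67 with metformin (adjusted p = 0.0587 from limma) and −0.55 with AICAR (adjusted p = 0.0823). The list as a whole did not share this direction. With metformin 7 of the 9 ratios to control were above 0 and 2 below (median 0.04). With AICAR 4 were above 0 and 5 below (median −0.02). Whether the 2 probes of HSPA1B also read the near-identical HSPA1A could not be checked. Of 20 J-domain proteins of the cytosol and nucleus, DNAJC9, a chaperone of histones, was lower with metformin (−0.88, adjusted p = 0.0261) and with AICAR (−0.75, adjusted p = 0.0302). DNAJB6 was lower with metformin than with AICAR (−1.18, adjusted p = 0.0385). Without the 3 arrays the calls of CCT2 against control (adjusted p = 0.0567), TCP1 (adjusted p = 0.0564), DNAJC9 with either drug (adjusted p = 0.0509 and 0.0586) and DNAJB6 (adjusted p = 0.0684) were lost. With equal array deviations those of CCT2 in both comparisons (adjusted p = 0.0668 and 0.0535), DNAJC9 with AICAR (adjusted p = 0.0565) and DNAJB6 (adjusted p = 0.0523) were lost. From direct ratios alone no partner gene passed for metformin against control, and PHB1 and CCT2 did not pass for metformin against AICAR.

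No gene passed in any comparison among 9 other small heat shock proteins, 10 other cochaperones of HSP70 and 6 genes of heat shock transcription factors and their partners (limma). At an unadjusted p below 0.05 with metformin against control these lists held 1, 6 and 0 genes, and with AICAR against control 2, 5 and 1, levels that 17.5% and 20.9% of all transcripts reached. For metformin against AICAR they held 1, 6 and 1, beside 6468 of 24541 transcripts. There BAG3 (−0.692, adjusted p = 0.0111 from limma) and BAG1 (−0.698, adjusted p = 0.0445) missed only the ratio threshold. HIKESHI, on the other side of 0, also missed only that threshold (0.41, adjusted p = 0.0394). Of the 10 other HSP70 cochaperones, 6 ratios of metformin to AICAR were below 0 and 4 above. With AICAR against control, BAG3 was above 0 and again short only of the ratio threshold (0.44, adjusted p = 0.0469 from limma). These genes are named after their values were seen. HSF1 mRNA had a ratio of 0.10 with metformin (SE 0.09, adjusted p = 0.675 from limma) and of 0.21 with AICAR (SE 0.09, adjusted p = 0.258). HSF1 is controlled largely at the protein level, which the arrays do not measure.

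**Figure D3:**
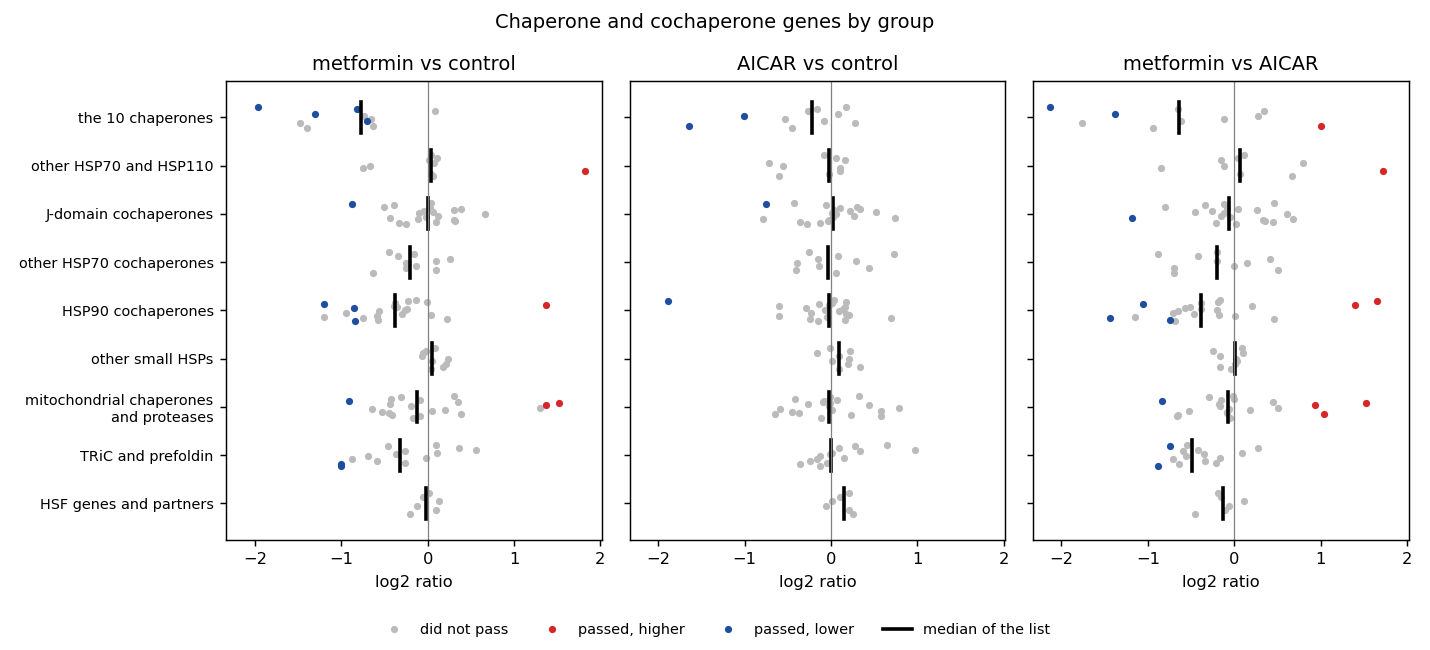
Log2 ratios of the 10 chaperones and of the 8 lists of partner genes (rows) in the 3 comparisons (panels). Each point is a gene, red or blue where it passed the test as higher or lower, and the bar is the median of the list. The medians with metformin against control are −0.77 for the 10 chaperones, −0.38 for the HSP90 cochaperones and −0.31 for TRiC and prefoldin.

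The genes most like HSPH1 were sought over all 12 arrays by the root mean square difference of their ratios. Of 14487 named genes, PCLAF (0.447), TUBA1A (0.517), CENPX (0.539), UGT2B15 (0.559) and CDCA5 (0.564) came closest, where the median gene differed by 1.69. PCLAF binds the replication clamp PCNA, CENPX belongs to the kinetochore, CDCA5 secures sister chromatids, TUBA1A is an alpha tubulin and UGT2B15 inactivates androgens. Their ratios of metformin to control, which the search itself made like that of HSPH1, ran from −1.53 for UGT2B15 to −1.39 for CENPX, and are a description only. Among the other chaperones HSPB1 came 13th (0.733) and HSP90AA1 24th (0.782), and DNAJB1 was the least like HSPH1 (2.23). The likeness describes these 12 arrays only.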

How the data were processed

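RNA of LNCaP cells was hybridized to spotted oligonucleotide arrays of 27648 features. The deposited values, read here as log2 ratios, had been normalized by the authors in limma, within each slide by print-tip loess and then across slides by quantiles. The limma version and any background correction are not stated. Of 17711 probes listed with a symbol, 14602 were named by RefSeq accession, 2837 by symbol or synonym, 156 kept the listed symbol and 116 were left unnamed because accession and symbol named different genes. Probes of a gene were averaged, which gave 24541 transcripts, 10053 of them without a name. Each feature without a name was kept as a transcript of its own and counts in the shares of all transcripts. Whether some of these features are control or empty spots was not checked. Ratios were turned by the dye labels, dye-swap partners were averaged, and least squares turned the 6 resulting ratios into levels of the 6 extracts. To these a model with treatment and culture (the replicate number as a block) was fitted in R 4.3.3 with limma 3.58.1, with 2 residual and 2.88 prior degrees of freedom. The numbers pair the samples because both RNAs of an array come from the same culture. The number of arrays and cultures limits the precision. Simulated data with known changes were used to test the scripts.

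The 10 genes and the 8 lists were chosen with earlier results of these data known. The named genes are the 10 chaperones, up to 4 genes of a list that passed in a comparison, those with the smallest p, HSF1, and the 5 genes most like HSPH1. Alternatives were arrays as separate data points, direct ratios only, a dye term, median-centred and scaled arrays, single probes, robust variances, leaving out the 3 arrays with slide numbers apart, no ratio threshold, and leaving out either culture. A match of heat shock elements was made by script in RefSeq windows of GRCh38.p14.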

Additional observations from a re-analysis of the deposited data

How the results depend on the processing

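Every one of the 10 genes kept the direction and call of its fitted ratio in all 3 comparisons with median-centred arrays and with robust variances. With the 12 arrays as separate data points and no replicate block, 7 instead of 4 of the 10 passed as lower for metformin against control (HSPA8, HSP90AA1 and DNAJA1 in addition) and 4 instead of 2 for metformin against AICAR, and over all transcripts 464 passed as lower with metformin and 275 as higher with AICAR against control. A dye term on the 12 arrays gave 7 and 4 of the 10 and 468 and 278 transcripts. Both fits count dye-swap arrays of the same extracts as independent and ignore the culture. Their added calls therefore do not rest on more replication. HSP90AA1 was among those of the first fit although its cultures gave −0.62 and −2.33. From direct ratios only, 0 of the 10 passed as lower, and 0 of all transcripts as higher and 0 as lower, for metformin against control, the median of the 10 being −0.77. For metformin against AICAR 0 of the 10 then passed as higher. With the median absolute deviation of all arrays made equal, the median of the 10 for metformin against control was −0.81 and HSPA8 also passed there (adjusted p = 0.041 from limma), while 67 transcripts passed as higher with AICAR, and CDCA5 turned to −0.00204 with AICAR. The second probe of HSP90AA1 alone gave −0.19 with AICAR.

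Without the 3 arrays with slide numbers apart (in culture 1, the pair that compares metformin with control and 1 that compares AICAR with control), 210 transcripts passed as higher and 121 as lower with metformin against control, and the median of the 10 was −0.81. With AICAR 1 of the 10 passed as lower (DNAJB1), with 60 transcripts higher and 382 lower, HSPB1 turned to −0.15 and UGT2B15 to 0.011. The remaining array of AICAR and control in culture 1 then lacks its dye-swap partner, so dye differences are not cancelled there. For metformin against AICAR 314 transcripts passed as lower. By adjusted p alone, 190 transcripts passed as higher with AICAR against control, and 4 of the 10 and 1043 transcripts as lower for metformin against AICAR. Leaving out either culture gives values with no test: the median of the 10 lay between −0.79 and −0.78 for metformin against control, between −0.28 and −0.11 for AICAR against control, and between −0.68 and −0.51 for metformin against AICAR. Of 43 ratios of the other named genes, 18 lost their call from direct ratios only, 11 without the 3 arrays and 6 with equal deviations. With 2 cultures a gene whose cultures differ, such as HSP90AA1, can carry a large ratio without passing. Ratios from two-colour arrays hold no signal over background, so dim probes could not be told from bright ones.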
